A study of Homo sapiens with 6 samples.

Results

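The A1/A1-HMW regions are stretches of RNA with a listed cluster of monomeric wild-type hnRNP A1 and of its slow-migrating band, and no listed cluster of an RNA recognition motif mutant. A1 regions were made by merging, on each strand, the clusters of both libraries of the monomer. A region was kept when at least 1 nt of it overlapped an A1-HMW cluster on the same strand and none of it overlapped an A1dm cluster. Of 10574 A1 regions, 802 met the rule (7.58%, 95% Wilson interval 7.10 to 8.10%). The regions were thus selected on their overlap with A1-HMW and A1dm clusters, and the number itself is a description and carries no test. It was 384 without A1-HMW replicate 2 and 500 without A1-HMW replicate 1.

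The libraries came from PAR-CLIP, in which RNA cross-linked to a protein through a photoreactive uridine analogue is immunoprecipitated and sequenced, in HEK293T cells, an established human embryonic kidney line. All cells carried transiently transfected plasmids for myc-tagged hnRNP A1, received 4-thiouridine, and were UV cross-linked before immunoprecipitation with an anti-myc antibody. A1-HMW was the RNA cut from the higher molecular weight band of the wild-type protein, which the study describes as possibly dimeric. A1dm was the monomer band of a variant carrying R75D and R88D, and A1 was the monomer band of the wild-type protein. Each group had 2 libraries. A1-HMW and A1 were cut from wild-type immunoprecipitates, so all 4 of these libraries share the overexpressed protein and the tag. The lists held 671 and 865 clusters for A1-HMW, 232 and 596 for A1dm, and 5805 and 8100 for A1, with median lengths of 23 to 25 nt. The study's own peaks were made with a further caller and are not analysed here. The study describes more peaks for A1-HMW and for A1dm than these lists hold, so the overlaps described below hold for these lists only. The lists give neither reads per cluster nor gene expression, so the identity of the cells could not be checked against marker genes. A missing cluster, also of the short A1dm lists, cannot be told apart from low depth or low abundance of the RNA. The study describes 2 independent PAR-CLIP experiments. The labels do not say whether the libraries of a group came from separate cultures, so part of the spread between them may be technical.

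hnRNP A1 is an abundant nuclear RNA-binding protein that shuttles to the cytoplasm and is best known as a regulator of alternative splicing. Its tandem RNA recognition motifs bind single-stranded RNA, classically sites that hold UAG, and a disordered glycine-rich tail mediates contacts between protein molecules. R75 and R88 form salt bridges between the tandem motifs, which the mutant breaks. In PAR-CLIP, 4-thiouridine in the RNA cross-links to the bound protein, so a cluster must contain at least 1 uridine, written T in genomic sequence.

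The sequences below show what the regions look like, in 7 found in all 4 wild-type libraries, among them the intron of AGFG1, the gene that the study displayed as an example of this binding pattern. They are GRCh37 reference sequence, written in the sense of the transcript, with the longest run of A and G within the region in capitals. Intronic, coding and noncoding examples include 20 nt on each side of the region, and those of untranslated regions are the region alone.
AGFG1, intron 2, chr2:228378103-228378167, plus strand: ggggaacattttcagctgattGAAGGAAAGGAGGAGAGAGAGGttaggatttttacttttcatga
ITGB3BP, intron 2, chr1:63959329-63959397, minus strand: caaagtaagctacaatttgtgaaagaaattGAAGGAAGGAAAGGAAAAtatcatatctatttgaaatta
DDX17, intron 1, chr22:38899409-38899477, minus strand: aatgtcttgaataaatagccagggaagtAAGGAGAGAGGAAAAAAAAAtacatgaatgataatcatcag
TMED2-DT, exon 3, chr12:124065472-124065539, minus strand: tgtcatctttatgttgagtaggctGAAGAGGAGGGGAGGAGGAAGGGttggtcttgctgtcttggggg
AKAP8L, coding exon 8, chr19:15511120-15511186, minus strand: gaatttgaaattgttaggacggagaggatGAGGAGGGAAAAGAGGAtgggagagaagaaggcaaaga
RBBP4, 3′ untranslated region, chr1:33150993-33151021, plus strand: aggagggagttGGGAAGAGAGGAAGGGGt
RAB5A, 5′ untranslated region, chr3:19988717-19988741, plus strand: AGAGGGAGGAGGAGGAGGAAGAAtt

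Each of these regions is a run of A and G bordered by 1 or a few T. This architecture was shared by nearly all A1/A1-HMW regions, and it was not particular to them. A run of at least 12 purines was present in 788 of 802 A1/A1-HMW regions (98.3%), in 9107 of 9389 A1-only regions (97.0%), which overlapped neither an A1-HMW nor an A1dm cluster, and in 133 of 150 regions shared by all 3 groups (88.7%). The difference from A1-only regions was 1.26 percentage points with a 95% Newcombe interval of 0.05 to 2.05, and among regions found in both A1 libraries it was -0.081 points (-1.16 to 0.43). The interval spanned 0 without any 1 of the 6 libraries, at 0.44 to 1.37 points. Against regions shared by all 3 groups it was 9.59 points (5.29 to 15.7), and 2.70 points (0.45 to 7.52) among regions found in both A1 libraries. The median longest run was 19 nt in each of the 3 sets.

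In the averaged profile the purine content was high within the region and near 50% in its surroundings. At the 5 nt from the centre onward, 98.4% of bases were A or G in A1/A1-HMW regions, 98.3% in A1-only regions and 95.1% in regions shared by all 3 groups. At 95 to 99 nt downstream the shares were 52.4%, 53.3% and 53.6%. The T residues sat at the ends. Of 1491 T in A1/A1-HMW regions, 32.6% lay in the first 20% of the region, 1.95% in the middle 20% and 42.1% in the last 20%, and A1-only regions had 27.9%, 2.94% and 45.2%. A single T was present in 317 A1/A1-HMW regions (39.5%), against 4089 A1-only regions (43.6%). These measures of T position were chosen after the values were seen.

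**Figure D1:**
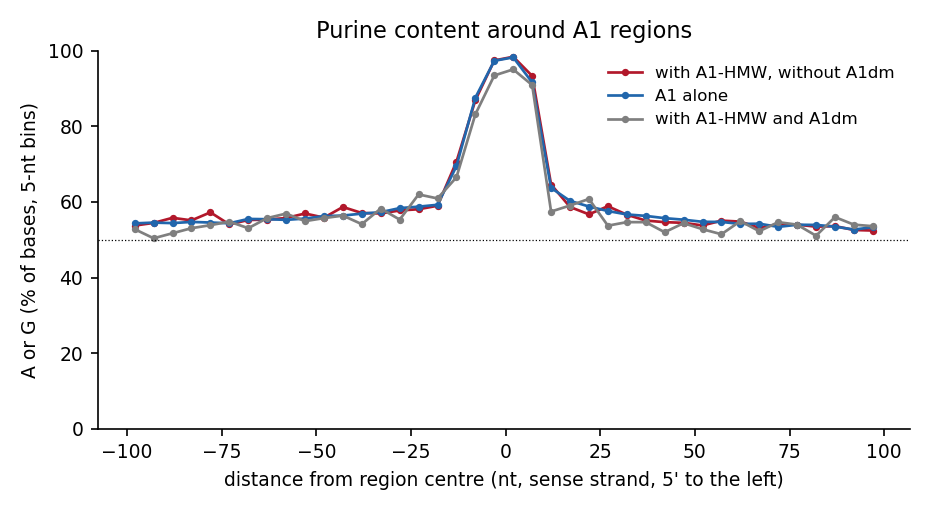
Share of bases that are A or G (%) in 5-nt bins against the distance from the region centre (nt, sense strand), for A1/A1-HMW regions (red), A1-only regions (blue) and regions shared by all 3 groups (grey), with a dotted line at 50%. All 3 curves peak at the centre, and the first bin after it holds 98.4%, 98.3% and 95.1% purine.

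Short motifs were counted in windows of 40 nt centred on the region. GAGGAA was present on the sense strand in 37.2% of A1/A1-HMW windows (33.9 to 40.6%), 33.8% of A1-only windows and 34.0% of all A1 windows. AGGAAG was present in 38.4% (35.1 to 41.8%), 33.2% and 33.7% of them. Both motifs overlap each other in sequence and are favoured by any A- and G-rich stretch. TAGGG, close to the classical hnRNP A1 site, was present in 46 A1/A1-HMW windows (5.74%), 5.77% of A1-only windows and 5.66% of all A1 windows, and its longer form TTAGGG in 2.62%, 1.86% and 1.88%. On the opposite strand the most frequent of the 4 motifs was present in 0.37% of A1/A1-HMW windows (AGGAAG) and in 0.26% of all A1 windows (TAGGG).

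A1/A1-HMW regions were found in both A1 libraries far more often than A1-only regions. Without read numbers, presence in both libraries is a stand-in for how easily a region is detected. Whether ease of detection accounts for the difference was not tested. Clusters in both A1 libraries were present for 541 of 802 A1/A1-HMW regions (67.5%) and 2534 of 9392 A1-only regions (26.98%), a difference of 40.5 points (37.03 to 43.8). Regions shared by all 3 groups were found in both A1 libraries more often still, in 124 of 151 cases (82.1%), and the difference of A1/A1-HMW regions minus these was -14.7 points (-20.9 to -7.09). Put the other way, 16.3% of the 3328 regions found in both A1 libraries were A1/A1-HMW regions, against 3.76% of those found only in A1 replicate 1 and 3.52% of those found only in A1 replicate 2. With 2 libraries a group an exact two-sided test over libraries cannot give p below 0.33, so the intervals here and in the comparisons that follow cover counting error over regions only, and regions of 1 gene are not independent.

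**Figure D2:**
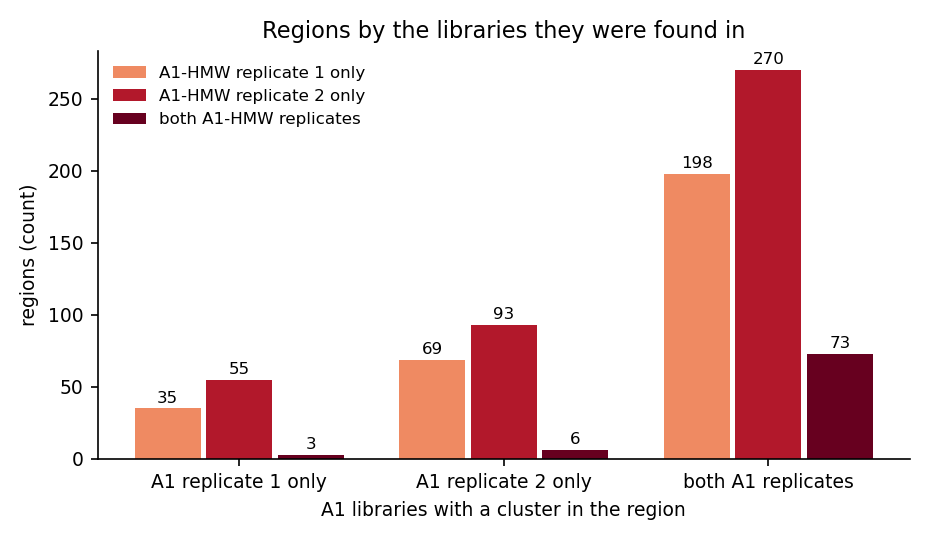
Number of A1/A1-HMW regions (y axis) by the A1 libraries in which a cluster was found (x axis) and by the A1-HMW libraries that overlapped them (bar colour). The tallest bars belong to regions of both A1 replicates with A1-HMW replicate 1 only (198) or replicate 2 only (270), and 73 regions had a cluster in all 4 libraries.

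Few of the regions were overlapped by both A1-HMW libraries. A cluster of A1-HMW replicate 1 alone overlapped 302 regions, a cluster of replicate 2 alone overlapped 418, and clusters of both overlapped 82 (10.2%). In all, 73 regions (9.10%) had clusters in all 4 wild-type libraries, and 252 (31.4%) rested on 1 A1-HMW and 1 A1 library. A1/A1-HMW regions took up 57.2% and 57.7% of the clusters of the A1-HMW libraries, and 10.9% and 8.75% of those of the A1 libraries. Of all A1-HMW clusters, another 13.3% and 12.5% lay in A1 regions shared with A1dm, and 28.0% and 28.9% overlapped neither A1 nor A1dm.

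Shared clusters largely coincided to within a few bases, but most were not identical at both ends. In regions found in both A1 libraries, both ends lay within 5 nt in 84.0 to 88.6% of cases over the 4 pairs of A1-HMW and A1 libraries. Both ends were identical in 25.4 to 34.7%. The A1 replicates set against each other gave 88.9% and 35.9%. In regions found in both A1 libraries, the 3′ ends of the A1-HMW cluster and the A1 cluster were identical in 57.4 to 70.1% of cases over the 4 pairs of libraries, and the 5′ ends in 43.5 to 47.6% (271 regions for A1-HMW replicate 1 and 343 for replicate 2). The A1 replicates set against each other in 541 regions had the same 3′ end in 67.5% and the same 5′ end in 48.8%, which is within the range of the 4 pairs at the 3′ end and above it at the 5′ end. Where ends differed, A1-HMW clusters more often reached further on both sides. The A1-HMW 5′ end lay upstream of the A1 end in 90, 96, 125 and 133 regions over the 4 pairs and downstream in 52, 57, 60 and 57, whereas A1 replicate 2 began upstream of A1 replicate 1 in 136 and downstream in 141. The A1-HMW 3′ end lay downstream more often than upstream, in 61 against 20, 73 against 25, 75 against 52 and 92 against 54 regions over the same pairs, whereas A1 replicate 2 ended downstream of A1 replicate 1 in 81 and upstream in 95. These end positions were examined after the regions were known and carry no test.

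**Figure D3:**
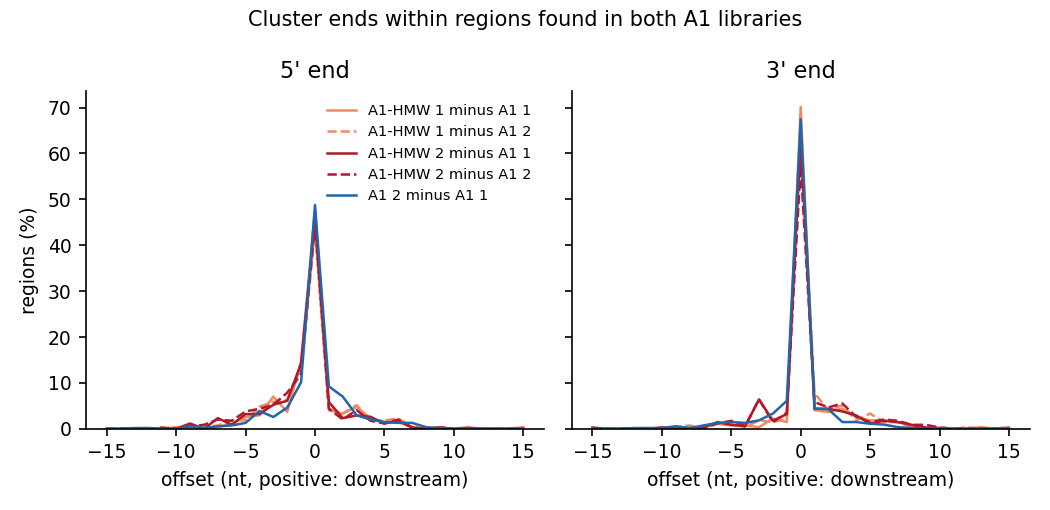
Share of regions (%) against the offset of cluster ends (nt, positive is downstream) in A1/A1-HMW regions found in both A1 libraries, for A1-HMW minus A1 in each of 4 library pairs (orange and red) and A1 replicate 2 minus replicate 1 (blue), at 5′ ends (left) and 3′ ends (right). The peak at 0 reaches 57.4 to 70.1% at 3′ ends and 43.5 to 47.6% at 5′ ends for A1-HMW minus A1, near the values of 67.5% and 48.8% for the A1 replicates.

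Region length was alike. A1/A1-HMW regions had a median of 25 nt (quartiles 23 and 28), A1-only regions 25 nt (23 and 27) and regions shared by all 3 groups 24 nt (23 and 26). Within A1 libraries the median cluster was 24 nt in A1/A1-HMW regions and 24 nt in A1-only regions for replicate 1, and 24 and 25 nt for replicate 2. The widest overlap with an A1-HMW cluster had a median of 24 nt and ranged between 8 and 32 nt, so few regions depended on the minimum of 1 nt. The smallest overlaps were in intergenic regions, at chr1:97398134-97398164 with 8 nt and at chr3:63990549-63990560 with 12 nt, the whole length of the latter region. Just outside the rule, 6 A1-only regions had an A1-HMW cluster at 20 nt or less. The nearest were in the 3′ untranslated region of PANK3 (5 nt) and in a coding exon of ANKRD11 (6 nt).

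Most A1/A1-HMW regions were intronic. By GENCODE annotation on the same strand, with exons taken before introns, 537 lay in introns, 103 in exons of protein-coding genes, 19 in exons of long noncoding RNAs, 2 in exons of other RNAs and 141 outside genes. None lay on the mitochondrial genome. Among the 103 in protein-coding genes, 35 overlapped coding sequence, 37 a 3′ untranslated region, 11 a 5′ untranslated region and 20 an exon of a noncoding transcript. These are 34.0%, 35.9%, 10.7% and 19.4%. The A1-only regions, which overlapped neither an A1-HMW nor an A1dm cluster, had a similar split of 35.8%, 31.4%, 10.3% and 22.5%.

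Their placement differed from that of A1-only regions mainly in the share outside genes. It was 17.6% of A1/A1-HMW regions and 26.6% of A1-only regions, a difference of -9.02 points (-11.7 to -6.09), and -5.13 points (-8.50 to -1.39) among regions found in both A1 libraries. This measure was chosen after the values were seen. Of regions within genes, 81.2% of A1/A1-HMW regions (537 of 661) and 84.8% of A1-only regions were intronic, a difference of -3.55 points (-6.81 to -0.63). With intergenic regions kept in the denominator the direction turned, to 66.96% and 62.2% (4.73 points, 1.26 to 8.04). The interval spanned 0 in regions with a cluster in A1 replicate 1 (-2.66 points, -6.41 to 0.68) and in those found in both A1 libraries (-3.09 points, -7.28 to 0.68), and without A1-HMW replicate 1 (-2.63 points). Exons of protein-coding genes held 15.6% of A1/A1-HMW regions and 13.0% of A1-only regions within genes, a difference of 2.54 points whose interval spanned 0 (-0.16 to 5.60) and lay above 0 without A1dm replicate 1 (3.12 points) or replicate 2 (3.77 points), and it was -1.20 points with both A1-HMW libraries required. Exons of long noncoding RNAs held 2.87% and 1.83% (1.05 points, -0.04 to 2.64).

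Regions shared by all 3 groups differed in the split between introns and exons. Within genes, 81.2% of A1/A1-HMW regions and 66.7% of regions shared by all 3 groups were intronic (14.6 points, 6.32 to 23.6), and 15.6% of A1/A1-HMW regions and 31.0% of regions shared by all 3 groups were in exons of protein-coding genes (-15.4 points, -24.3 to -7.39). Both intervals lay on the same side of 0 within each A1 library and within regions found in both A1 libraries. The share outside genes was 17.6% and 16.6%, a difference whose interval spanned 0 (1.02 points, -6.16 to 6.82).

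Within introns, A1/A1-HMW regions tended to lie in shorter introns and nearer to exons. Their introns had a median length of 16438 nt, against 22962 nt for A1-only regions, and their median distance to the nearest exon was 3093 nt, against 4372 nt. An exon lay at 300 nt or less from 62 of 537 intronic A1/A1-HMW regions (11.5%) and from 477 of 5843 A1-only regions (8.16%), a difference of 3.38 points (0.84 to 6.44). The start of the gene lay at 5000 nt or less from 14.7% and 10.2% of them, a difference of 4.49 points (1.63 to 7.83). Both differences kept their side of 0 in regions of A1 replicate 1, of A1 replicate 2 and of both. Neither measure differed from that of regions shared by all 3 groups beyond the interval, at 15.5% near an exon (-3.93 points, -13.5 to 2.95) and 15.5% near the gene start (-0.76 points, -10.4 to 6.24), and those had a median intron of 12447 nt and a median exon distance of 2116 nt. Intron 1 held 30.5% of A1/A1-HMW regions and 32.1% of A1-only regions, and that difference spanned 0 (-5.54 to 2.59 points). Introns of noncoding genes held 8.01% and 11.0% (-3.00 points, -5.17 to -0.28), and the interval spanned 0 among regions found in both A1 libraries (-3.94 to 2.44). The measures of this paragraph were chosen after the values were seen.

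**Figure D4:**
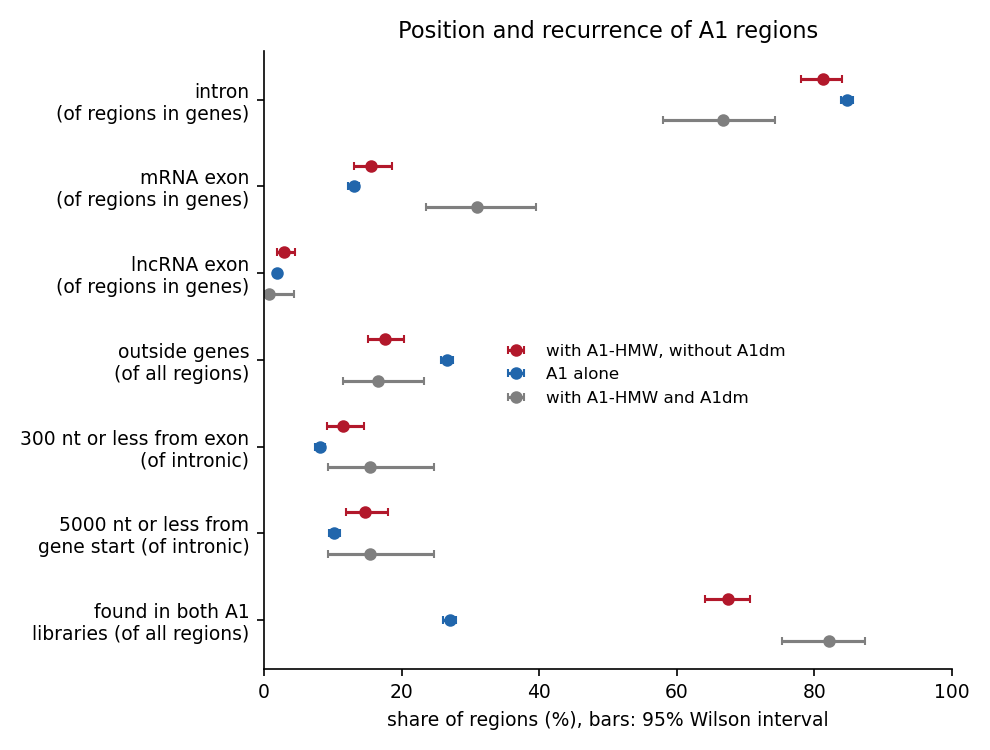
Share of regions (%, with 95% Wilson intervals) by annotation, by distance to exons and gene starts within introns, and by presence in both A1 libraries, for A1/A1-HMW regions (red), A1-only regions (blue) and regions shared by all 3 groups (grey). The share outside genes is 17.6% against 26.6% for A1-only regions, the intronic share is 81.2% against 66.7% for regions shared by all 3 groups, and presence in both A1 libraries is 67.5% against 26.98% for A1-only regions.

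Introns gave many of the regions that were found in all 4 wild-type libraries, 53 of 73 (72.6%, 61.4 to 81.5%). The intronic share was 66.96% of all A1/A1-HMW regions and 62.2% of A1-only regions, with intergenic regions in the denominator. The other 20 comprised 9 in exons of protein-coding genes, 6 in exons of long noncoding RNAs and 5 outside genes. All 73 held a run of at least 12 purines.

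AGFG1, which encodes a protein involved in nuclear export and vesicle trafficking, carried 1 A1/A1-HMW region of 25 nt in intron 2. The A1-HMW clusters spanned 27 and 24 nt and the A1 clusters 24 and 25 nt, and they differed by at most 4 nt at the 5′ end and 1 nt at the 3′ end. The other A1 region of the gene, 9293 nt upstream in the same intron, was found in A1 replicate 2 only and in neither A1-HMW library. No A1dm cluster lay in AGFG1.

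ITGB3BP, a centromere protein and nuclear receptor coregulator, had the same 29-nt cluster in all 4 libraries (chr1:63959349-63959377, intron 2). An intergenic region at chr5:32098444-32098467 also had 1 cluster of 24 nt that was identical in all 4. DDX17, an RNA helicase that acts in splicing and microRNA processing, had A1-HMW clusters of 29 and 29 nt and A1 clusters of 29 and 22 nt in intron 1. In DDX17 the shorter A1 cluster lay inside the other 3.

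Intronic regions of all 4 libraries lay at widely differing distances from exons. In NAT10, the acetyltransferase that makes N4-acetylcytidine in RNA, the region ended 103 nt from an exon, and in DR1, a repressor of RNA polymerase transcription, 341 nt. In SIPA1L1, a regulator of Rap signalling and the actin cytoskeleton, it lay 95117 nt from the nearest exon in an intron of 191561 nt. PIAS1, a SUMO ligase, FAF1, a ubiquitin-binding adaptor, GLO1, which detoxifies methylglyoxal, SMAD9, a transducer of BMP signals, CREB5, a transcription factor, and WAPL, which releases cohesin from chromatin, also carried such regions. Their distances to the nearest exon ranged between 1841 nt in CREB5 and 31869 nt in FAF1.

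The 9 exonic regions of protein-coding genes covered all parts of the transcript. RAB5A, a GTPase of early endosomes, carried its region in the 5′ untranslated region, with A1-HMW clusters of 28 and 27 nt and A1 clusters of 25 and 25 nt. HCFC1, a chromatin-associated cofactor of cell cycle transcription, also carried it in the 5′ untranslated region, with 25 and 25 nt in A1-HMW and 22 and 23 nt in A1. The A1-HMW clusters reached 3 nt further in the 3′ direction than the A1 clusters in RAB5A and 2 nt further in the 5′ direction in HCFC1.

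The 3′ untranslated regions were represented by RBBP4, a histone-binding subunit of chromatin complexes, ENSA, an inhibitor of the mitotic phosphatase PP2A, and PANK3, a kinase of coenzyme A synthesis. RBBP4 had A1-HMW clusters of 23 and 34 nt and A1 clusters of 29 and 18 nt, so the span differed between replicates as much as between bands. PANK3 had 25 and 25 nt in A1-HMW and 24 and 23 nt in A1. A second A1 region of PANK3 lay 5 nt upstream, was found in A1 replicate 1 only and was not overlapped by A1-HMW.

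Coding sequence was represented by AKAP8L, a nuclear scaffold protein, in exon 8 and PRRC2C, a stress granule protein, in exon 12. AKAP8L had A1-HMW clusters of 27 and 18 nt and A1 clusters of 27 and 20 nt. PRRC2C had 25 and 25 nt in A1-HMW and 22 and 22 nt in A1. It was the only A1/A1-HMW region with an A1dm cluster at 100 nt or less, and that cluster lay 33 nt away. Its sequence shows the run of 19 purines that A1-HMW and A1 shared.
PRRC2C, coding exon 12, chr1:171501979-171502040, plus strand: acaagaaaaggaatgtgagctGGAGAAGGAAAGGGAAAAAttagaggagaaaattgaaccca

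Exons of noncoding transcripts of HNRNPL, a splicing regulator, and SLC3A2, the heavy chain of amino acid transporters, completed this set. HNRNPL had A1-HMW clusters of 26 and 26 nt and A1 clusters of 23 and 26 nt at chr19:39327591-39327616. SLC3A2 had 29 and 29 nt in A1-HMW and 23 and 24 nt in A1.
HNRNPL, chr19:39327571-39327636, minus strand: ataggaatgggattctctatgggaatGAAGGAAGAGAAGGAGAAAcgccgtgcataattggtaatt

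The 6 long noncoding RNAs were PURPL, TMED2-DT, DLEU2, the host of a microRNA cluster deleted in leukaemia, ZNF767P and the unnamed ENSG00000258634 and ENSG00000224635. TMED2-DT had A1-HMW clusters of 29 and 29 nt and A1 clusters of 26 and 28 nt in exon 3, with no A1dm cluster in the gene. PURPL had 26 and 26 nt in A1-HMW and 24 and 29 nt in A1, and an A1dm cluster lay 496 nt away. DLEU2 and ZNF767P each also carried 1 A1dm cluster, at 7862 and 25734 nt.

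A1/A1-HMW regions were spread over many genes. The 661 regions within genes lay in 585 genes, of which 520 had 1 region, 56 had 2 and 9 had 3 or 4. CREB5 and HDAC8 had 4 each. HDAC8, a histone deacetylase encoded on the X chromosome, had 7 A1 regions and no A1dm cluster, and its 4 A1/A1-HMW regions lay in introns 4, 7, 9 and 10. A1-HMW replicate 2 overlapped all 4, while replicate 1 overlapped only that of intron 4. The sequences are printed because they show how unlike runs of A and G were bound within the same transcript.
HDAC8, intron 4, chrX:71735296-71735362, minus strand: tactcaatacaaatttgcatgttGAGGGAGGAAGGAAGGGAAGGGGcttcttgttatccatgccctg
HDAC8, intron 7, chrX:71690404-71690463, minus strand: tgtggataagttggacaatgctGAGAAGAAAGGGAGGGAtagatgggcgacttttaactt
HDAC8, intron 9, chrX:71649957-71650031, minus strand: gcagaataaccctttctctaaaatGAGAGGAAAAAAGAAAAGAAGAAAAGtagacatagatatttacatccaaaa
HDAC8, intron 10, chrX:71557381-71557444, minus strand: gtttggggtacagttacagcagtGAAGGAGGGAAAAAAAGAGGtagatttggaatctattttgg

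CREB5 had 14 A1 regions, of which 4 were A1/A1-HMW regions. These lay in introns 1, 1, 7 and 9, with the first numbered on another transcript than the rest. CREB5 also carried 2 A1dm clusters, the nearest 6339 nt from one of the 4. GNGT1, a G protein subunit, NFIA, a transcription factor, GIGYF2, a translational repressor, CRYBB2P1, a pseudogene, PICALM, a clathrin adaptor, SCAF8, a regulator of transcript termination, and HOXD11 had 3 each. The 3 regions of GNGT1 lay in an intron of 294734 nt, were found in both A1 libraries and overlapped A1-HMW replicate 1 only. In PICALM all 3 likewise overlapped A1-HMW replicate 1 only.

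HOXD11, a homeobox gene of limb and trunk patterning, was the most compact case. All 3 of its A1 regions were A1/A1-HMW regions, within 1 intron, and they lay 54 and 2 nt apart. The region at chr2:176971022-176971052 had A1-HMW clusters of 22 and 26 nt and A1 clusters of 22 and 31 nt. The other regions were covered by the same 63-nt cluster of A1-HMW replicate 2 and by none of replicate 1, so they are not independent members. In A1, the middle region had clusters of 20 and 25 nt and the last only 1 of 32 nt, in replicate 2. No A1dm cluster lay in the gene.
HOXD11, first region, chr2:176971002-176971072, plus strand: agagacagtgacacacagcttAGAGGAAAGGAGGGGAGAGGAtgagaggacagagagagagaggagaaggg
HOXD11, middle region, chr2:176971087-176971155, plus strand: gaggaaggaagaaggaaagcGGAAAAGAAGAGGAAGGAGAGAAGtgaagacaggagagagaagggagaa
HOXD11, last region, chr2:176971118-176971189, plus strand: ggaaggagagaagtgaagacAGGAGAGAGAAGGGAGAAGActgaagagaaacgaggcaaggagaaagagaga

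**Figure D5:**
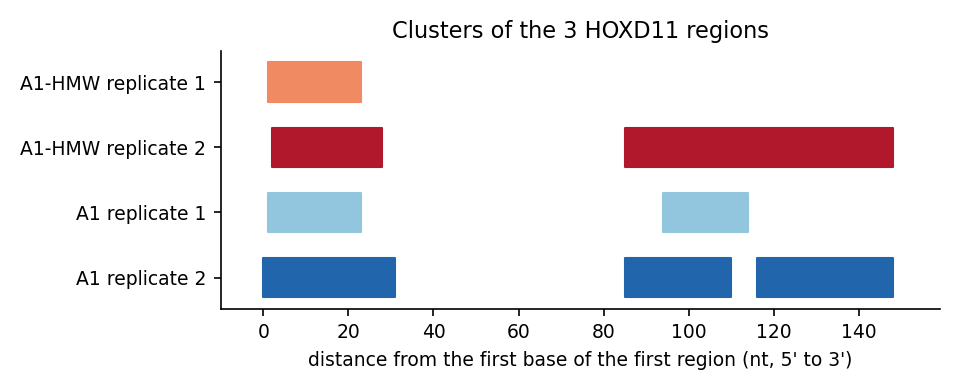
Clusters of A1-HMW (upper rows) and A1 (lower rows), by replicate, at the 3 A1/A1-HMW regions of HOXD11, drawn to scale against the distance from the first base of the first region (nt, 5′ to 3′). The first region has a cluster in all 4 libraries, and the 63-nt cluster of A1-HMW replicate 2 spans both other regions.

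Neighbouring clusters were otherwise sparse. Another A1 region lay at 500 nt or less on the same strand from 37 A1/A1-HMW regions (4.61%), against 3.46% of A1-only regions, a difference whose interval spanned 0 (1.15 points, -0.15 to 2.87). It lay above 0 without A1 replicate 2 (1.54 points), A1-HMW replicate 1 (2.15 points) or A1dm replicate 2 (1.55 points). At 2000 nt or less the shares were 12.1% and 7.63%, a difference of 4.46 points (2.31 to 6.95). The median gap to the next A1 region was 20776 nt for A1/A1-HMW regions and 38486 nt for A1-only regions. Of pairs of A1/A1-HMW regions within 500 nt there were 4, of which 3 were in HOXD11 and 1 in the 3′ untranslated region of RPL14, a protein of the large ribosomal subunit. The regions of RPL14 lay 25 nt apart, both were found in both A1 libraries, and the first overlapped A1-HMW replicate 1 only and the second replicate 2 only.
RPL14, first region, chr3:40506912-40506934, plus strand: AGGGGAGAGGAGGAAGGAttggc
RPL14, second region, chr3:40506960-40506982, plus strand: GAGGAAAAGGAAGAAAAGGtggg

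A1dm clusters lay near A1/A1-HMW regions more often than near A1-only regions. By the rule no A1dm cluster overlapped them, but an A1dm cluster lay at 10000 nt or less from 44 of 802 (5.49%) and from 197 of 9392 A1-only regions (2.10%), a difference of 3.39 points (1.98 to 5.21). Of regions within genes, 93 of 661 A1/A1-HMW regions (14.1%) and 661 of 6891 A1-only regions (9.59%) lay in a gene with an A1dm cluster, a difference of 4.48 points (1.93 to 7.41). Both differences lay above 0 within each A1 library and among regions found in both (3.71 points, 1.79 to 6.17, and 5.79 points, 2.33 to 9.72). These measures were also chosen after the values were seen. Both sets were selected on the same A1-HMW and A1dm lists, so these differences describe the selected regions and carry no test. In all, 72 of the 585 genes (12.3%) carried an A1dm cluster. Of 4011 genes with A1-only regions and no A1/A1-HMW region, 221 carried one.

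Genes of RNA-binding proteins and of the splicing machinery were set beside the background of 7.58% of all A1 regions, 8.39% of those within genes, and 17.0% of those within genes and found in both A1 libraries. The list of hnRNPs and related RNA-binding proteins had 68 A1 regions, of which 12 in 11 genes were A1/A1-HMW regions (17.6%, 10.4 to 28.4%). Among its regions found in both A1 libraries the number was 10 of 27 (37.04%, 21.5 to 55.8%). Besides those of DDX17 and HNRNPL, a region with clusters in all 4 wild-type libraries lay in HNRNPM, a splicing regulator. It had A1-HMW clusters of 22 and 23 nt and A1 clusters of 22 and 22 nt in intron 2, and an A1dm cluster lay 3149 nt away.

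The spliceosome and SR protein list had 9 of 51 A1 regions (17.6%, 9.57 to 30.3%), each in a different gene, and 6 of 26 among regions found in both A1 libraries (23.1%, 11.03 to 42.1%). SF3B3, a subunit of the branch-point complex, had A1-HMW replicate 1 and both A1 libraries in intron 11. SNRPB, a core protein of the small nuclear ribonucleoproteins, had both A1-HMW libraries and A1 replicate 2 in intron 1. PRPF4B and SRPK2, kinases of splicing factors, had A1-HMW replicate 1 and both A1 libraries in introns 3 and 2. No set test was made, the lists were chosen with earlier results of these data known, and the intervals cover counting error only.

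By their share of all A1 regions, other lists were nearer to the background. Among regions found in both A1 libraries, chromatin remodelers and histone chaperones had 7 of 33 (21.2%), near the 23.1% of the spliceosome list. DNA repair and checkpoint genes had 4 of 44 (9.09%) there, histone modifying enzymes 3 of 21 (14.3%) and translation factors 1 of 8 (12.5%). Chromatin remodelers and histone chaperones had 9 of 79 A1 regions (11.4%, 6.11 to 20.3%), of which 5 were exonic. Among them, NAP1L4, a histone chaperone, had 1 region in coding exon 13 and 1 in intron 10, SUPT6H, an elongation factor that handles histones, had 1 in its 3′ untranslated region and 1 in intron 24, and CHD6, a remodeler, had 1 in coding exon 31. DNA repair and checkpoint genes had 9 of 87 (10.3%, 5.54 to 18.5%). ATR, a kinase of the replication stress checkpoint, was the one of this list with clusters in all 4 libraries, of 28 and 28 nt in A1-HMW and 26 and 25 nt in A1, in intron 35. Regions of MSH6, a mismatch repair protein, and DDB2, which detects UV lesions, overlapped A1-HMW replicate 2 only.

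Histone modifying enzymes had 7 of 79 (8.86%, 4.36 to 17.2%), of which HDAC8 gave 4 and KDM6A, a histone demethylase, 1 in an exon of a noncoding transcript. Translation factors had 1 of 28 (3.57%, 0.63 to 17.7%), in intron 32 of EIF4G1, the scaffold of cap-dependent initiation. Of the known splicing targets of hnRNP A1, 8 genes held 9 A1 regions, none of them an A1/A1-HMW region, which allows a share of up to 29.9% by the Wilson interval.

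The 14 A1/A1-HMW regions without a run of 12 purines were mostly found in a single A1 library. Of these, 6 were intergenic, 7 intronic and 1 in RNA5SP509, a 5S ribosomal RNA pseudogene. Intergenic here means outside the genes of the GENCODE annotation, and no separate list of transfer RNA genes was searched. Likeness of these sequences to ribosomal or transfer RNA was not tested either. Only 3 were found in both A1 libraries, those in COLEC11 and at chr3:63990549-63990560 and chr22:36119607-36119627. The region at chr12:56584205-56584224 was the only one of the 14 with both A1-HMW libraries, with clusters of 25 and 21 nt, beside a cluster of 20 nt in A1 replicate 2. In 4 of the 14 the longest run was 3 purines, and 3 of those are shown for contrast with the purine tracts above. Those of MAP3K3 and RNA5SP509 each rested on 1 A1 and 1 A1-HMW library.
Intergenic, chr12:56584185-56584244, plus strand: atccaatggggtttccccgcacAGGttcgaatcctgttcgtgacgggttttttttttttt
MAP3K3, intron 1, chr17:61706861-61706922, plus strand: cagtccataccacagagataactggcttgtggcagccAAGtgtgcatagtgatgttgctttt
RNA5SP509, exon 1, chrX:76287209-76287268, plus strand: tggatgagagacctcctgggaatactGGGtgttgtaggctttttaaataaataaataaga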

How the data were processed

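The 6 lists of PAR-CLIP clusters comprised 2 for each of A1-HMW, A1dm and A1. Per the submitters' processing notes and the file headers, the authors aligned reads to hg19 with Bowtie, called clusters with wavClusteR and annotated them with HOMER. The deposited score column was 0 in every line and carried no information, and the deposited start and end positions were the only other values used. The start in each line was 1 above that in the cluster identifier. With the identifier's start every placed cluster held a T, against 94.7 to 98.0% with the listed start, so the identifier's start was used. Depth per library is unknown.

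Clusters were merged and compared on the same strand, and annotated with GENCODE 44 lifted to GRCh37, exons before introns and protein-coding genes first, with A1 regions on the mitochondrial genome counted as within genes. Sequences were read from GRCh37, where regions on unplaced contigs had none. Shares have 95% Wilson intervals and differences 95% Newcombe intervals (scipy 1.17.1, Python 3.11.15), and a difference was called when its interval lay on one side of 0. The code was tested on simulated clusters. The members, gene lists and rules were chosen with earlier results of these data known. Named are regions found in all 4 wild-type libraries (all exonic and up to 12 intronic), up to 10 genes with most regions, up to 4 regions of each list, the study's example gene, and regions nearest to the overlap threshold. RPL14, ANKRD11 and the regions without a purine run were named after their values were seen. Alternatives covered overlap, start, A1dm exclusion, recurrence, each library left out, replicate numbers, annotation, purine run and distance. Regions of some genes that the rule for named genes covers are not reported here.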

Additional observations from a re-analysis of the deposited data

How the results depend on the processing

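The number of A1/A1-HMW regions was 82 when both A1-HMW libraries were required, and it ranged between 384 and 893 with 1 library left out, with 384 without A1-HMW replicate 2, 500 without A1-HMW replicate 1 and 893 without A1dm replicate 2. The intronic difference from A1-only regions ranged between -4.62 and -2.63 points with 1 library left out, and its interval spanned 0 without A1 replicate 2 (-2.65 points) and without A1-HMW replicate 1 (-2.63 points). It also spanned 0 among regions found in both A1 libraries (-3.09 points) and with both A1-HMW libraries required (-4.53 points). With intergenic regions in the denominator it turned to 4.73 points, since A1-only regions lay outside genes more often.

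The mRNA exon difference ranged between 1.66 and 3.77 points with 1 library left out and lay above 0 without A1dm replicate 1 (3.12) or A1dm replicate 2 (3.77), with intergenic regions in the denominator (3.27) and with introns taken before exons (2.14), but was -1.20 points with both A1-HMW libraries required. The purine run difference ranged between 0.44 and 1.37 points with 1 library left out, and spanned 0 in each case. It was 1.21 points, spanning 0, without an A1dm cluster within 100 nt, 1.78 points, spanning 0, with both A1-HMW libraries required, 0.58 points, spanning 0, in windows of 40 nt, -0.081 points among regions found in both A1 libraries and -0.0997 points for a run of 8. For these reversals and lost calls the cause was not tested.

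The neighbour difference ranged between 0.37 and 2.15 points with 1 library left out, and lay above 0 without A1 replicate 2 (1.54), A1-HMW replicate 1 (2.15) or A1dm replicate 2 (1.55), and at distances of 200 nt (1.17) and 2000 nt (4.46). The median length difference ranged between -1 and 0 nt with 1 library left out and was 1 nt among regions found in both A1 libraries. The recurrence difference kept its side of 0 in all 9 alternatives, between 40.3 and 62.0 points. Of the 15 or 16 alternatives of the other share differences, 4 to 10 kept both direction and call. The number of regions and the median length difference have no call. By size alone they stayed close to the main value in 10 and 11 of 13 alternatives.

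With the rule applied within a replicate number (the replicate block), there were 831 regions, the intronic difference was -4.71 points, the mRNA exon difference 3.35 points and the neighbour difference 1.64 points, all with intervals on one side of 0, and the purine run difference 0.38 points, spanning 0. Whether the numbers pair the libraries cannot be told from shared clusters, since the A1 lists differ in length (5805 and 8100 clusters). A1-HMW replicate 1 overlapped A1 replicates 1 and 2 in 57.8% and 63.9% of its clusters, and A1-HMW replicate 2 in 57.3% and 62.8%. Without read numbers, absence of a cluster cannot be told apart from low depth, and the number of A1/A1-HMW regions was 846 and 893 with 1 A1dm library left out.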
